A study of Mus musculus with 14 samples.

Results

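The genes described here are Fgf21 and Gdf15, which encode the stress hormones fibroblast growth factor 21 and growth differentiation factor 15, and Klb and Fgfr1, which encode the receptor pair for FGF21. These 4 of the 35275 genes in the deposited table were chosen by symbol, matched to Ensembl identifiers, and each is given by its value in every animal. Transcripts of brown adipose tissue were sequenced from C57BL/6 mice at 8 weeks of age. All 14 animals carried floxed alleles of Lrpprc, a nuclear gene whose protein binds and stabilises mitochondrial messenger RNAs. Knockouts also carried the Ucp1-Cre transgene, in which the Ucp1 promoter drives the recombinase in brown and beige adipocytes, and controls did not. At room temperature (22 °C) there were 4 controls and 4 knockouts, and at thermoneutrality (30 °C) there were 3 of each. Animals are numbered within a group only to name them, and nothing pairs animals across groups.

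FGF21 is a secreted hormone that acts on cells that carry an FGF receptor together with the co-receptor β-klotho, the product of Klb. GDF15 is a secreted member of the transforming growth factor β family, and its receptor GFRAL, which signals through RET, is found in the hindbrain. Both hormone genes are known targets of the integrated stress response, in which phosphorylation of the initiation factor eIF2α raises translation of ATF4, and both are known to respond to mitochondrial defects in muscle and fat.

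Depth was 15.9 to 21.3 M fragments per library. Values are FPKM, fragments scaled to transcript length and to library depth. FPKM is a level per length, so it can be compared between genes. The labels name brown adipocytes, but the RNA came from whole homogenised tissue. A lower level could therefore come from fewer cells of a type or from less RNA per cell, and these cannot be told apart. The 12 brown adipocyte markers summed to 7999 to 19920 FPKM in the 14 animals, and none was at 0 in any group. Lrpprc, the targeted gene, was at 9.34 to 12.5 FPKM in room-temperature knockouts and 23.2 to 47.1 FPKM in their controls. At thermoneutrality it was at 5.95 to 9.91 FPKM in knockouts and 28.6 to 31.0 FPKM in controls. All 6 animals at thermoneutrality had Xist, at 9.01 to 18.4 FPKM, and no animal at room temperature exceeded 0.0141 FPKM, while Y-linked Ddx3y ranged from 14.5 to 23.1 FPKM in the cooler group and did not exceed 0.0244 FPKM in the warmer one. The labels give no sex, and wherever temperatures are compared below, housing and this split of sex-linked genes cannot be told apart.

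Differences are given as log2 fold changes of scaled FPKM plus 1, which understates the change of a weakly expressed gene, with the standard error (SE) and limma's p-value adjusted over all 13079 genes tested. A gene is called when this adjusted p is under 0.05. Among all genes tested, 1.71% were called between knockouts and controls at room temperature (107 or 0.818% higher, 116 or 0.887% lower) and 12.9% at thermoneutrality (967 or 7.39% higher, 726 or 5.55% lower). With FPKM as deposited, without scaling, the calls were 3167 higher and 81 lower at room temperature and 4280 higher and 291 lower at thermoneutrality. That setting moved the median of all genes to 0.24 and 0.31, against 0.01 and 0.02 with scaling. Between temperatures, scaling gave 2644 genes higher (20.2%) and 2363 lower (18.1%) at room temperature in controls and 3583 higher (27.4%) and 3239 lower (24.8%) in knockouts, and FPKM as deposited gave 1738 and 3200, and 2289 and 4402. The labels give each library its own animal identifier, so p-values measure the spread between animals.

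The upstream regions of Fgf21 and Gdf15 are shown because both genes are known targets of ATF4. RefSeq promoters (build GRCm38.p6) were matched for Fgf21, Gdf15 and Klb, 3 of the 4 genes. Each sequence is the 250 bases before the annotated start of transcription, 5′ to 3′ on the strand of the gene. Fgf21 lies on the minus strand at chr7:45615491-45615740 and Gdf15 on the minus strand at chr8:70632457-70632706. Capitals mark matches to the motifs searched.
Fgf21: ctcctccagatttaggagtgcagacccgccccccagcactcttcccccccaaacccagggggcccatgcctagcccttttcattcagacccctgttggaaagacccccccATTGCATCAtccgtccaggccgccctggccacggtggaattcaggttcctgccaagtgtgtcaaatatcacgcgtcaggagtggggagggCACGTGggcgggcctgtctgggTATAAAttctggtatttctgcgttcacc
Gdf15: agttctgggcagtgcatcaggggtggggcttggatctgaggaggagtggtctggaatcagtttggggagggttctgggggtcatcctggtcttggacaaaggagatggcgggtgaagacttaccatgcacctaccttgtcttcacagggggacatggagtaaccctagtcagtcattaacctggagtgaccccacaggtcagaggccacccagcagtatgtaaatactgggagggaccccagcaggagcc

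The composite element to which ATF4 and C/EBP proteins bind was searched on both strands as TGATGNAA, and its fuller form as TGATGCAAT. Fgf21 held the fuller form on its opposite strand, 140 to 132 bases before the start. TGATGNAA was found in 3.45% of 32851 promoter windows of the same length, and TGATGCAAT in 0.167%. Fgf21 also held the E-box CACGTG, 50 to 45 bases before the start (6.02% of windows, both strands), and the TATA box TATAAA, 28 to 23 bases before it (7.59% of windows, searched on the gene's own strand). The 250 bases before the listed start of Gdf15 held none of these motifs, nor the cAMP response element TGACGTCA (1.55% of windows). A second start listed for Gdf15 has CACGTG 83 to 78 bases before it. The Klb window held no match. These matches describe letters in a window and show no binding.

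Fgf21, the ligand, was near the limit of detection in controls and was higher in every knockout. At room temperature the 4 controls had 0.262, 0.0576, 0.0527 and 0.182 FPKM, which rest on 5, 1, 1 and 3 reads. The 4 knockouts had 16.8, 5.10, 1.35 and 1.84 FPKM, from 292, 91, 20 and 32 reads. Each knockout therefore lay above each control, and the highest knockout was 12.4 times the lowest. Relative to depth, the reads of the knockouts together were 46.4 times those of the controls, with an exact 95% interval of 25.0 to 97.4 that reflects the counting of reads alone, as reads copied by PCR are not separate molecules. The ratio was 20.6 without knockout 1. On the log2 scale the difference was 2.11 with an SE of 0.47 (limma adjusted p = 0.041). Fgf21 passed the filter of at least 1 FPKM in at least 3 samples through the knockouts alone, so it had to differ to be tested, and with no filter it was not called (limma adjusted p = 0.0968). The exact two-sided permutation test of the same log2 values gave p = 0.0286, the smallest that 4 against 4 animals allow. Groups did not overlap for 8.82% of all genes, and knockouts were the higher group for 4.94%.

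At thermoneutrality Fgf21 was again low in controls, at 0, 0.167 and 0 FPKM, from 0, 3 and 0 reads. At 0 reads a library allows up to 3 reads (a one-sided 95% limit), or 0.169 FPKM in control 1 and 0.176 FPKM in control 3. The 3 knockouts had 1.16, 1.22 and 3.32 FPKM, from 23, 22 and 55 reads, and lay above the 3 controls. The ratio of reads relative to depth was 32.3 (exact 95% interval 10.7 to 159, for counting error only). It was 20.9 without knockout 3 and 21.4 without control 1, and all 3 control reads came from control 2. The log2 fold change of 1.204 (SE 0.54) was not called (limma adjusted p = 0.172), and the exact permutation test gave p = 0.1, the smallest that 3 against 3 animals allow. At this temperature the groups did not overlap for 36.1% of all genes.

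The room-temperature call of Fgf21 was close to the threshold. It held in 4 of 8 other ways of processing. With 1 animal left out at a time, it held in 3 of 14 cases, those without knockout 1 (1.51), knockout 3 (2.48) or knockout 4 (2.38), and the other 11 gave 2.05 to 2.19 with limma adjusted p-values of 0.0504 to 0.127. The thermoneutral difference passed without room-temperature knockout 1 (1.202, limma adjusted p = 0.0236), and the difference between the knockout effects at the temperatures was 0.90 (SE 0.72, limma adjusted p = 0.66).

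**Figure D1:**
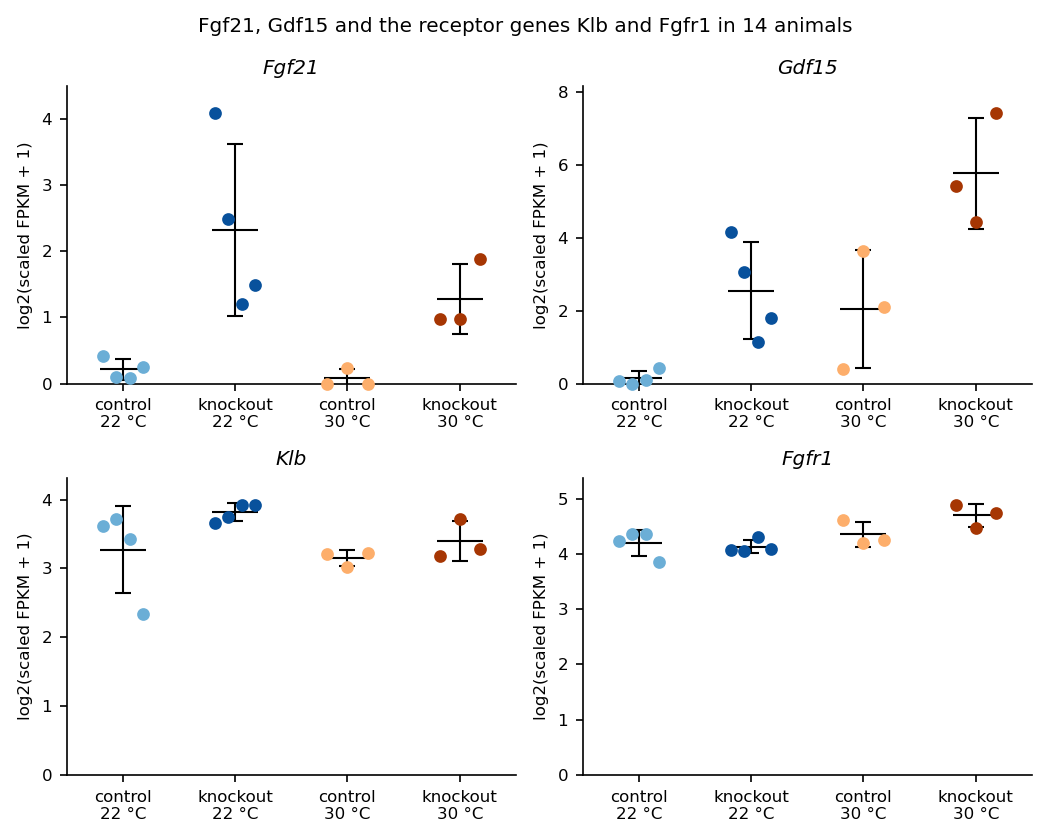
Level of each gene in every animal as log2(scaled FPKM + 1), with a point per animal, a bar for the group mean and whiskers for the SD, for 4 animals a group at 22 °C and 3 at 30 °C. Fgf21 and Gdf15 are higher in knockouts at both temperatures with a wide spread between knockouts, while the ranges of Klb overlap between genotypes.

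Gdf15, the other hormone gene, was higher in knockouts at both temperatures and reached its highest levels in thermoneutral knockouts. Room-temperature controls had 0.0316, 0, 0.0634 and 0.329 FPKM, from 1, 0, 2 and 9 reads. The limit that 0 reads allow in control 2 is 0.104 FPKM. Room-temperature knockouts had 17.5, 8.17, 1.26 and 2.57 FPKM, from 506, 242, 31 and 74 reads. All 4 lay above the controls, as they did for 4.94% of all genes. Their reads relative to depth were 75.8 times those of the controls (exact 95% interval 43.1 to 147). This ratio was 41.5 without knockout 1 and 234 without control 4, which held 9 of the 12 control reads. The log2 fold change was 2.40, with an SE of 0.76 set by the spread between animals, and it was not called (limma adjusted p = 0.141; exact permutation p = 0.0286). It passed with a pseudocount of 0.1 (4.65, limma adjusted p = 0.0356) and with FPKM as deposited (2.47, limma adjusted p = 0.0327).

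Thermoneutral controls varied widely in Gdf15, with 0.306, 10.9 and 3.18 FPKM. Thermoneutral knockouts had 50.7, 26.1 and 210 FPKM, the last from 5791 reads. Each knockout was above each control, in a comparison where groups did not overlap for 36.1% of all genes. The highest knockout was 8.05 times the lowest. Reads of the knockouts relative to depth were 18.9 times those of the controls (exact 95% interval 17.1 to 20.9, for counting error only). The ratio was 8.07 without knockout 3 and 53.2 without control 2. The log2 fold change of 3.73 (SE 0.88) was called (limma adjusted p = 0.0144) and was rank 2 from the highest of 13079. It did not pass without control 1 (2.901, limma adjusted p = 0.064) or without knockout 3 (2.89, limma adjusted p = 0.0708). Gdf15 reached 1 FPKM in fewer than 3 controls, so it passed the filter only with the knockouts. The thermoneutral difference was called in all 8 other ways of processing, no filter among them. The difference between the knockout effects was -1.33 (SE 1.16, limma adjusted p = 0.682), and it was above 0 with a pseudocount of 0.1 (0.26) and with limma voom (1.30).

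The same genes were then compared between housing temperatures. Gdf15 was lower at room temperature than at thermoneutrality in knockouts (log2 fold change -3.23, SE 0.82, limma adjusted p = 0.00547), where 52.2% of all genes were called. All 4 room-temperature knockouts lay below the 3 thermoneutral knockouts. Groups did not overlap for 56.5% of all genes in this comparison. In controls the difference was -1.90 (SE 0.82, limma adjusted p = 0.082), where 38.3% of all genes were called. The control ranges overlapped, whereas those of 43.2% of all genes did not. The difference passed without thermoneutral control 1 (-2.73, limma adjusted p = 0.0276). In knockouts Fgf21 averaged 6.27 ± 7.20 FPKM (SD, n = 4) at room temperature against 1.90 ± 1.23 FPKM (SD, n = 3) at thermoneutrality, and the ranges overlapped (1.04, SE 0.51, limma adjusted p = 0.102). It passed without room-temperature knockout 3 (1.41, limma adjusted p = 0.0294). In controls Fgf21 differed by 0.13 (SE 0.51, limma adjusted p = 0.856).

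The ratio of the hormone transcripts separated the knockouts by temperature. In room-temperature knockouts Gdf15 FPKM was 1.04, 1.60, 0.933 and 1.39 times Fgf21 FPKM. In thermoneutral knockouts it was 43.7, 21.4 and 63.4 times, and in thermoneutral control 2, the only control there with Fgf21 reads, 65.0 times, which rests on 3 Fgf21 reads. Room-temperature controls, with 1 to 5 Fgf21 reads, had 0.12, 0, 1.2 and 1.81 times. The mean log2 ratio was 0.28 ± 0.36 (SD, n = 4) against 5.28 ± 0.80 (SD, n = 3), a difference of -5.00. By an exact permutation test, two-sided, p was 0.0571, the smallest possible for 4 against 3 animals. This ratio was chosen after its values were seen.

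**Figure D2:**
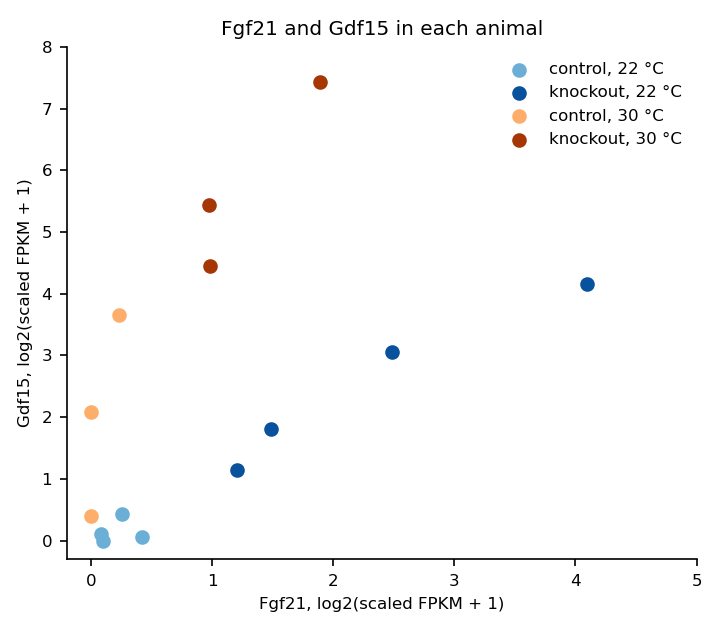
Gdf15 against Fgf21 in each of 14 animals, both as log2(scaled FPKM + 1), with a point per animal coloured by group. The 4 room-temperature knockouts have the same order in both genes, and the 3 thermoneutral knockouts, at 26.1 to 210 FPKM of Gdf15, all lie above them on the Gdf15 axis.

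Klb, the gene of the obligate FGF21 co-receptor, was expressed in every animal at 3.85 to 15.3 FPKM. Room-temperature controls had 8.76, 10.1, 8.57 and 3.85 FPKM and knockouts 12.2, 13.8, 14.5 and 14.5 FPKM. The knockouts lay above the controls as deposited, but the share of all genes without overlap was counted on scaled values only. After scaling the groups overlapped, since control 2 reached 12.2 scaled FPKM and knockout 1 had 11.7. For Klb the log2 fold change came to 0.54 (SE 0.24, limma adjusted p = 0.301), 0.81 with FPKM as deposited (limma adjusted p = 0.02) and 0.23 without control 4, the animal at 3.85 FPKM. Thermoneutral controls had 7.97, 6.71 and 8.13 FPKM and knockouts 9.67, 15.3 and 10.7 FPKM, with a log2 fold change of 0.24 (SE 0.28, limma adjusted p = 0.634; 95% interval -0.36 to 0.84). Temperature differences of Klb were 0.12 (SE 0.26, limma adjusted p = 0.737) in controls and 0.42 (SE 0.26, limma adjusted p = 0.19) in knockouts, and without control 4 at room temperature they were 0.44 and 0.42 and both passed (limma adjusted p = 0.0274 and 0.0185).

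Fgfr1, the receptor tyrosine kinase that pairs with β-klotho, was expressed in every animal. Room-temperature controls had 13.9, 16.2, 17.2 and 12.8 FPKM and knockouts 16.5, 17.4, 19.4 and 16.4 FPKM, with overlapping ranges and a log2 fold change of -0.07 (SE 0.14, limma adjusted p = 0.853; 0.21 with FPKM as deposited). Thermoneutral controls had 22.7, 16.4 and 17.6 FPKM and knockouts 34.5, 26.6 and 31.4 FPKM. The knockouts lay above the controls as deposited, where the share of all genes without overlap was not counted. After scaling the groups overlapped, as control 1 had 23.5 and knockout 2 had 21.3 scaled FPKM. This gave a log2 fold change of 0.35 (SE 0.16, limma adjusted p = 0.183), against 0.68 with FPKM as deposited (limma adjusted p = 0.00442). In knockouts Fgfr1 was lower at room temperature than at thermoneutrality (-0.57, SE 0.15, limma adjusted p = 0.00679), where 24.8% of all genes were called lower. It was rank 2720 from the lowest of 13079. In controls the difference was -0.15 (SE 0.15, limma adjusted p = 0.443). Gm16159, annotated antisense to Fgfr1, was at 0.165 to 0.49 FPKM in the group means, and the use of strand in counting is not given in the sources used here.

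**Figure D3:**
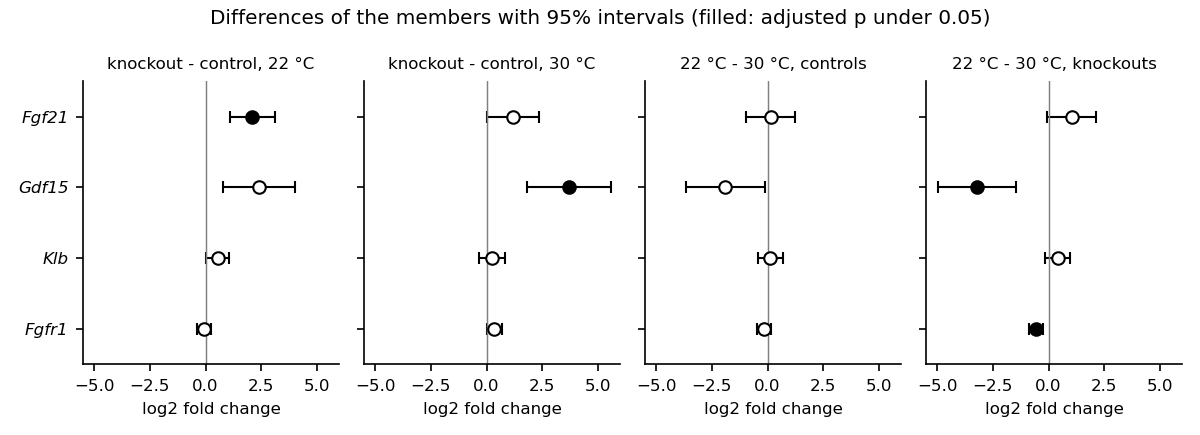
Log2 fold change of each gene in the knockout comparisons (left pair of panels) and the temperature comparisons (right pair), as a point with its 95% interval, filled where limma's adjusted p is under 0.05. Filled points are Fgf21 at 22 °C (2.11), Gdf15 at 30 °C (3.73) and, in knockouts, Gdf15 (-3.23) and Fgfr1 (-0.57) by temperature. By temperature in knockouts, 52.2% of all genes were called.

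Set side by side, the order of the levels changed between groups. In room-temperature controls Fgfr1 (15.03 ± 2.06 FPKM) and Klb (7.82 ± 2.73 FPKM) were far above Fgf21 (0.139 ± 0.102 FPKM) and Gdf15 (0.106 ± 0.151 FPKM, SD, n = 4 each), which did not differ from each other beyond their spread. In room-temperature knockouts the order was Fgfr1 (17.4 ± 1.39), Klb (13.8 ± 1.12), Gdf15 (7.37 ± 7.38) and Fgf21 (6.27 ± 7.20 FPKM, SD, n = 4 each), and the ranges of the hormone genes reached those of the receptors. In thermoneutral controls the order was Fgfr1 (18.9 ± 3.38), Klb (7.61 ± 0.779), Gdf15 (4.79 ± 5.47) and Fgf21 (0.0558 ± 0.0967 FPKM, SD, n = 3 each), and control 2 had more Gdf15 (10.9 FPKM) than Klb (6.71 FPKM). In thermoneutral knockouts Gdf15 led with 95.7 ± 99.9 FPKM, followed by Fgfr1 (30.8 ± 3.96), Klb (11.9 ± 2.996) and Fgf21 (1.90 ± 1.23 FPKM, SD, n = 3 each), and the range of Gdf15 reached that of Fgfr1.

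The wider receptor systems were described from lists of genes. Of 7 FGF receptor and co-receptor genes, Klb and Fgfr1 among them, 5 passed the filter on low values and 0 were called in either knockout comparison (0.818% of all genes were called higher at room temperature and 7.39% at thermoneutrality). At an unadjusted p under 0.05 there was 1 at each temperature, and limma voom called 0. Fgfrl1, a receptor that lacks the kinase domain, was the highest of them at 26.8 to 87.6 FPKM, and its log2 fold changes were 0.22 (limma adjusted p = 0.505) and 0.29 (limma adjusted p = 0.293). Fgfr2 and Fgfr3 had group means of 1.29 to 3.18 FPKM, Fgfr4 at most 0.734 FPKM in any animal, and Kl, the co-receptor of FGF23, at most 3 reads. The median log2 fold change of the list was 0.12 at room temperature and 0.29 at thermoneutrality, beside 0.01 and 0.02 for all genes.

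For GDF15, the receptor gene Gfral had 0 reads in all 14 libraries, which allows up to 3 reads in each. Ret, its signalling partner, was at 0.266 to 0.719 FPKM. Of 8 genes for this receptor and for proteases that process precursor proteins, 6 passed the filter. In either knockout comparison 0 were called by limma or limma voom, with 0 and 1 at an unadjusted p under 0.05. Limma called 1.71% of all genes at room temperature and 12.9% at thermoneutrality. Furin, a convertase of the secretory pathway, had group means of 24.0 to 44.3 FPKM and log2 fold changes of 0.00 and 0.08.

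Among 13 other FGF ligand genes, 5 passed the filter. At room temperature 0 were called (2 at an unadjusted p under 0.05), beside 1.71% of all genes. In thermoneutral knockouts 2 were lower, where 5.55% of all genes were called lower. Fgf16, which is known for its expression in brown fat and heart, fell from 2.27, 4.04 and 4.21 FPKM in thermoneutral controls to 0.285, 1.82 and 0.716 FPKM in knockouts (log2 fold change -1.43, limma adjusted p = 0.00323). No knockout reached the lowest control, and groups did not overlap for 36.1% of all genes. Fgf16 passed when any animal was left out and in the 8 other ways of processing, 22 alternatives in all. Fgf11 fell less (-0.59, limma adjusted p = 0.0262), and 6 of the 22 alternatives did not pass, among them those that left out any thermoneutral control or thermoneutral knockout 1 or 3. Fgf1, a ligand induced in adipose tissue by feeding, had a room-temperature log2 fold change of 0.72 (limma adjusted p = 0.0505).

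Downstream of the receptors, 13 of 13 docking and adaptor genes passed the filter. At room temperature 0 were called (1 at an unadjusted p under 0.05), and at thermoneutrality 1 was, near the 7.39% of all genes called higher. Grb2, the adaptor that links receptors to Ras, rose there by 0.59 on the log2 scale (limma adjusted p = 0.0108) and passed in all 22 alternatives. The list's thermoneutral median was -0.03, and 0.29 with FPKM as deposited. Of 14 genes that respond to ERK signalling or restrain it, 12 passed the filter, with 1 called higher at room temperature and 4 at thermoneutrality, and 0 lower. Of all genes, 0.818% and 7.39% were called higher. The median log2 fold changes were 0.30 and 0.80. At room temperature Dusp4, a nuclear phosphatase for ERK, rose from 13.1, 15.5, 16.5 and 6.76 FPKM to 90.7, 70.4, 41.4 and 37.1 FPKM (log2 fold change 1.82, limma adjusted p = 0.0177). It did not pass without knockout 1 or without knockout 2. At thermoneutrality the immediate early genes Fos (2.87, limma adjusted p = 0.013) and Ier2 (1.54, limma adjusted p = 0.0367) rose, with the ERK inhibitors Spry4 (1.098, limma adjusted p = 0.0401) and Spred1 (0.61, limma adjusted p = 0.0479). Of these, Fos passed in all 22 alternatives, Ier2 and Spry4 each failed in 7 and Spred1 in 13.

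Transcription factors reported to act on Fgf21 or Gdf15 were measured beside them. Of 22 listed, 21 passed the filter. At room temperature 6 were called higher and 0 lower, and at thermoneutrality 5 higher and 1 lower. Of all genes, 0.818% were called higher at room temperature, and 7.39% higher and 5.55% lower at thermoneutrality. The medians were 0.47 and 0.26. With FPKM as deposited 13 were called higher and 0 lower in both comparisons, where 3248 and 4571 of all 13079 genes were called. Ddit3, the gene of the stress factor CHOP, rose from 22.0, 24.2, 27.2 and 35.8 FPKM to 261, 211, 109 and 91.7 FPKM at room temperature (2.19, limma adjusted p = 0.000561). Every knockout lay above every control, as for 4.94% of all genes. Atf5 (2.01, limma adjusted p = 0.000643) and Atf4 (1.38, limma adjusted p = 0.0133) also rose there, as did Ppargc1a, Nupr1 and Cebpg (0.54 to 1.15). Ddit3 and Atf5 passed in all 22 alternatives, Atf4 failed without knockout 2, Nupr1 without control 2 or without knockout 2, and Ppargc1a and Cebpg in 13 and 16 of the 22.

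At thermoneutrality Atf3, which responds to stress signals and is also an immediate early gene, had the largest change in this list. It rose from 1.85, 23.2 and 7.83 FPKM in controls to 113, 62.9 and 101 FPKM in knockouts (3.08, limma adjusted p = 0.013), and it failed without control 1 or without knockout 1. Atf5 (1.97, limma adjusted p = 0.0012), Ddit3 (1.17, limma adjusted p = 0.0232), Nfe2l2 (0.50, limma adjusted p = 0.04997) and Nupr1 (0.49, limma adjusted p = 0.0235) rose too. Mlxipl, the gene of the carbohydrate-responsive factor ChREBP, fell by 0.60 (limma adjusted p = 0.0284). Among the alternatives Ddit3 failed in 4 of 22, Nupr1 in 5, Mlxipl in 6 and Nfe2l2 in 15. A further list held 10 genes that feed the integrated stress response, including the 4 eIF2α kinases. Of these, 1 was called at room temperature and 0 at thermoneutrality (1 at an unadjusted p under 0.05), beside 1.71% and 12.9% of all genes. The gene called was Ppp1r15a, an ATF4 target whose product restores eIF2α (1.85, limma adjusted p = 0.042), and it failed in 13 of the 22 alternatives.

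The order of animals within a group differed between these factors. In room-temperature knockouts Fgf21 and Gdf15 had the same order, with knockout 1 highest, then 2, 4 and 3. Of the 21 factors, 4 had this order (Atf3, Atf4, Cebpg and Atf6), and the others, Ddit3 and Atf5 among them, did not. Atf4 had 262, 164, 112 and 116 FPKM in knockouts 1 to 4, and Atf3 19.6, 14.6, 3.99 and 5.99 FPKM. In thermoneutral controls Gdf15 was highest in control 2, then 3 and 1, as were 6 of the 21 factors (Atf3, Atf4, Cebpb, Ddit3, Egr1 and Nfe2l2), with Egr1 at 8.70, 118 and 50.5 FPKM in controls 1 to 3. In thermoneutral knockouts 2 of the 21 had the order of Gdf15 (Atf4 and Trp53), and Atf3 was highest in knockout 1 where Gdf15 was highest in knockout 3. In room-temperature controls 0 of the 21 had the order of Gdf15. Fgf21 had another order than Gdf15 in room-temperature controls and in thermoneutral knockouts. With 3 or 4 animals few orders are possible, and the share of all genes with each order was not counted. The factors listed here were named after their order was seen.

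**Figure D4:**
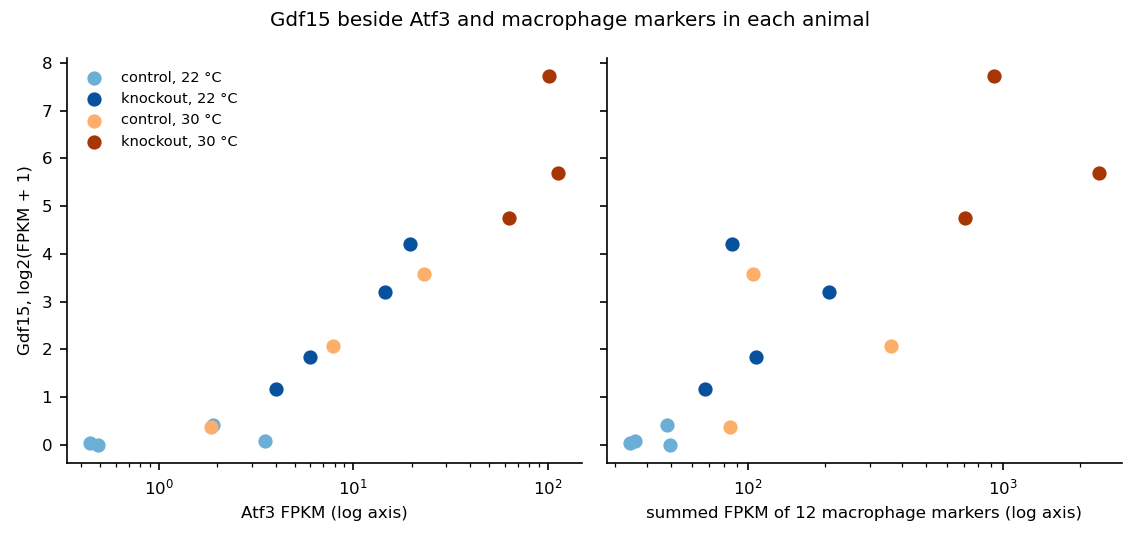
Gdf15 as log2(FPKM + 1) against Atf3 FPKM (left) and the summed FPKM of 12 macrophage markers (right), both on log x axes, with a point per animal coloured by group. Room-temperature knockouts and thermoneutral controls keep the same order of Gdf15 and Atf3, and room-temperature controls and thermoneutral knockouts do not. Thermoneutral control 3 has a macrophage sum of 365 FPKM and less Gdf15 than control 2, whose sum is 104 FPKM.

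Macrophage markers were higher in knockouts, as Gdf15 was. Mean Gdf15 was 7.37 ± 7.38 FPKM (SD, n = 4) in room-temperature knockouts and 4.79 ± 5.47 FPKM (SD, n = 3) in thermoneutral controls. In the same groups the mean macrophage sum was 117 and 185 FPKM, the latter raised by control 3 at 365 FPKM. The ranges of these groups overlapped for both. The summed level of 12 marker genes was 34.5 to 49.4 FPKM in room-temperature controls, 67.5 to 208 FPKM in room-temperature knockouts, 85.1 to 365 FPKM in thermoneutral controls and 707 to 2369 FPKM in thermoneutral knockouts. Neither temperature showed overlap between genotypes, and groups did not overlap for 8.82% of all genes at room temperature and 36.1% at thermoneutrality. At thermoneutrality 11 of 12 were called higher in knockouts, with a median of 2.34, beside 7.39% of all genes called higher. Some of these markers reached 1 FPKM in fewer than 3 controls, so they passed the filter only with the knockouts. At room temperature 0 of 12 were called (5 at an unadjusted p under 0.05), with a median of 0.65, beside 1.71% of all genes called. With FPKM as deposited 3 were called, where 3248 of all 13079 genes were. No marker was at 0 in a group mean. Within groups the orders differed. In thermoneutral controls the sum was 85.1, 104 and 365 FPKM in controls 1 to 3, so control 3 had the highest sum and control 2 the highest Gdf15. In room-temperature knockouts, knockout 2 had the highest sum and knockout 1 the most Fgf21 and Gdf15. Lrrc25, a leukocyte gene next to Gdf15 on the opposite strand, rose at thermoneutrality (1.70, limma adjusted p = 0.0175), and Pgpep1, on the other side of Gdf15, had log2 fold changes of 0.24 (limma adjusted p = 0.436) and -0.10 (limma adjusted p = 0.747). Beside Fgf21, Bcat2 had log2 fold changes of -0.46 (limma adjusted p = 0.155) and -0.39 (limma adjusted p = 0.168), and Fut1 did not pass the filter. The part of macrophages in the Gdf15 result was not tested.

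Fibroblast markers rose in thermoneutral knockouts too (5 of 7 tested, beside 7.39% of all genes, and 0 at room temperature). Skeletal muscle markers, whose tissue can express Fgf21, had 0 of 8 called in both comparisons, beside 1.71% and 12.9% of all genes. All 8 had log2 fold changes below 0 at room temperature (median -0.70) and above 0 at thermoneutrality (median 1.75). Their sum varied widely, from 19.8 to 12070 FPKM over all animals and from 355 to 5458 FPKM within room-temperature controls. In room-temperature knockouts the animal with the most Fgf21 had the lowest muscle sum (555 FPKM), and in thermoneutral knockouts the 3 sums were 8961, 2270 and 7176 FPKM. Endothelial and lymphocyte markers had 0 called of 6 and of 5 tested. For these lists limma voom called 0 too, and 0 had an unadjusted p under 0.05. Their part in the results of Fgf21 and Gdf15 was not tested.

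Genes that FGF21 is known to raise in adipose tissue did not move in one direction. Of 9 listed and tested, 1 was called higher and 1 lower at room temperature, and 1 higher and 4 lower at thermoneutrality, with medians of 0.01 and -0.36. Of all genes, 0.818% were called higher and 0.887% lower at room temperature, and 7.39% and 5.55% at thermoneutrality. Adipoq, the gene of adiponectin, was lower in knockouts at both temperatures (-0.78, limma adjusted p = 0.0218, and -1.29, limma adjusted p = 0.000837). The room-temperature decrease failed in 6 of the 22 alternatives, and the thermoneutral one in 0. Ppargc1a was the gene called higher at room temperature (1.15). At thermoneutrality Slc2a1, the gene of the glucose transporter GLUT1, rose (0.63, limma adjusted p = 0.0268). Ucp1, Cidea and the lipase gene Pnpla2 fell there with log2 fold changes of -1.36, -0.84 and -0.74. Among the alternatives Slc2a1 failed in 5 of 22, Ucp1 in 6, Cidea in 7 and Pnpla2 in 2. Under quantile normalization Pnpla2 was at 0.02. With FPKM as deposited the thermoneutral median of the list was -0.02. Of 12 brown adipocyte markers, 1 was called higher and 1 lower at room temperature and 0 and 5 at thermoneutrality. These lists share 6 genes, among them both room-temperature calls and 3 of the thermoneutral ones, so their counts are not independent.

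Fgf21 and Gdf15 were compared with 26 other genes for secreted factors of brown fat, of which 21 passed the filter. At room temperature 0 were called higher and 1 lower, Adipoq, beside 0.818% and 0.887% of all genes. At thermoneutrality 5 were called higher and 4 lower, beside 7.39% and 5.55% of all genes, with a median of -0.02. Fst, the gene of the activin antagonist follistatin (1.74), Pltp, a phospholipid transfer protein (1.54), Metrnl (1.42), Cxcl14 (1.03) and Lcn2 (0.80) rose. Cfd, the gene of adipsin (-1.31), Adipoq (-1.29), Ptgds (-1.101) and Vegfb (-0.75) fell. Fst, Pltp and Vegfb passed in all 22 alternatives, Cxcl14 failed without thermoneutral knockout 1, Metrnl without control 1 or knockout 1, Ptgds and Cfd in 4 each and Lcn2 in 7.

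**Figure D5:**
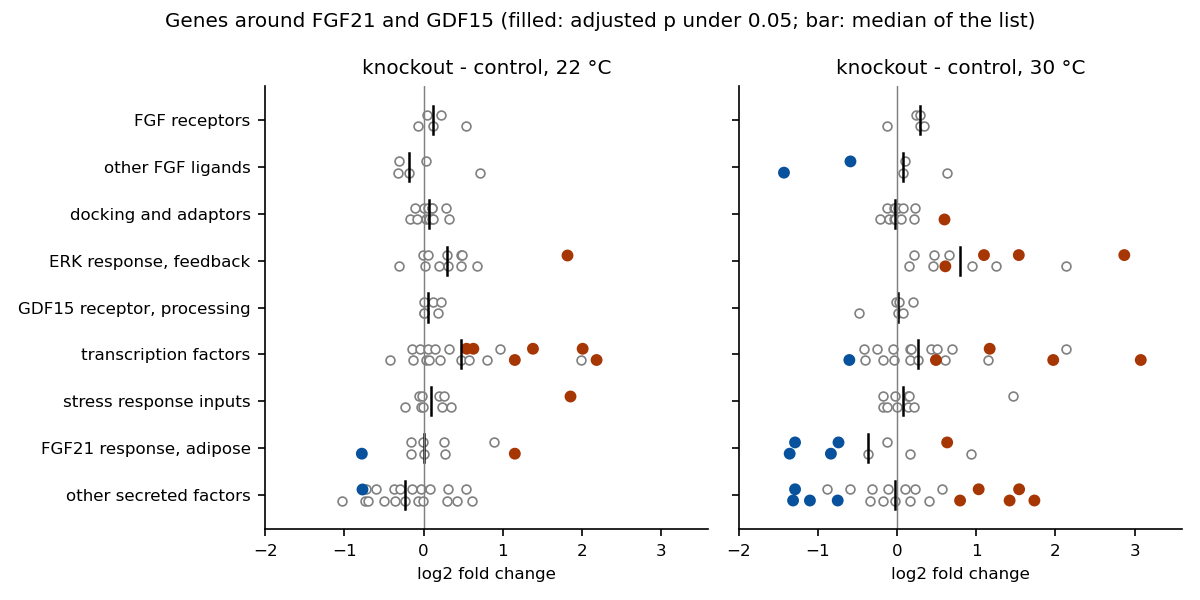
Log2 fold changes of the genes in 9 lists around FGF21 and GDF15 at 22 °C (left) and 30 °C (right), with a circle per gene that passed the filter on low values, filled where limma's adjusted p is under 0.05, and a bar at the median of each list. Transcription factors (6 filled at 22 °C) and, at 30 °C, ERK response genes (4 filled) are filled on the right, while at 30 °C 2 other FGF ligands and 4 FGF21 response genes are filled on the left.

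Genes with the pattern most like each member were ranked by Pearson's r of log2 scaled FPKM over 14 animals, after the mean of each housing temperature was subtracted, among 8975 genes whose mean reached 5 FPKM in any group. These values carry the genotype difference and share libraries, so they are a description. For Fgf21 the highest were Yars (0.967), Sars (0.966) and Wars (0.966), which encode aminoacyl-tRNA synthetases, followed by Acot2 (0.963) and Scd3 (0.959). For Gdf15 they were 1110008P14Rik (0.953), the phosphatase gene Dusp8 (0.945), the choline kinase gene Chka (0.944), the amino acid transporter gene Slc7a5 (0.942) and Siah1a (0.941). For Klb they were Mtmr9, Tmco3, Nek4, Gspt1 and Faf2 (0.936 to 0.953), and for Fgfr1 Rnft1 (0.866), Strada, Nagpa, Mast2 and Dtx2 (0.789 to 0.82). Between members, r was 0.842 for Fgf21 with Gdf15, 0.344 for Fgf21 with Klb and 0.00 for Fgf21 with Fgfr1. By r, Gdf15 was rank 187 for Fgf21, and Fgf21 was rank 145 for Gdf15.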

How the data were processed

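Brown adipose tissue RNA was sequenced in 14 mice, in 4 groups by Lrpprc genotype and housing temperature. The deposited values are FPKM per gene, made by the authors against mm9, per the submitters' processing notes; the aligner, the annotation and the use of strand are not given in the sources used here. Depths came from genes with 1 transcript, where 89.9% of low values were whole reads at the annotated length (within 0.05 reads). For each of the 24190 genes above 0, reads were recovered with the smallest length that made its values whole (within 0.01 reads). That such a length was found for every gene is therefore no separate check. The recovered reads summed to 99.99% to 100% of the depth.

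FPKM was divided by a library factor, the median ratio to the geometric mean over 15432 nuclear genes above 0 in every sample (0.778 to 0.973 in controls, 1.02 to 1.25 in knockouts). Genes with at least 1 FPKM in at least 3 samples were kept (13079). Group means were fitted to log2(scaled FPKM + 1) over 14 samples with limma 3.58.1 in R 4.3.3 (lmFit, eBayes with trend), with Benjamini-Hochberg adjustment in each comparison. On simulated data for the room-temperature comparison, 72.16% of genes changed by 1 on the log2 scale were recovered and 7.28% of calls were unchanged genes (12496 genes tested). For the thermoneutral comparison these were 58.25% and 4.24% (12496 genes tested). Whether these shares hold for the measured animals, or for genes that vary as widely between animals as Fgf21 and Gdf15, was not tested. Other steps used Python 3.11.15. The alternatives were leaving out each animal, a pseudocount of 0.1, no filter, FPKM as deposited, quantile normalization, leaving out the room-temperature controls whose animal identifiers begin with R and sample weights; limma voom on recovered reads and scaling over 10049 genes with at least 1 FPKM in every sample were chosen after seeing the data. Limma voom called 171 genes at room temperature and 1714 at thermoneutrality.

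The 4 genes and all lists were chosen with earlier results of these data known. Named beyond the 4 genes are Lrpprc, all FGF receptors, at most 4 called members of each list and knockout comparison (the largest changes first), members that a role needs, and the 5 genes most like each member. Nupr1, Cebpg, Nfe2l2, Slc2a1, Cxcl14, Lcn2, Ptgds and Vegfb, as well as Fgf1 and the neighbouring genes, fall outside this rule and were named after their values were seen.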

Additional observations from a re-analysis of the deposited data

Results flagged for a closer look

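Fgfr1 in room-temperature knockouts held a sample far from the others. After scaling, knockout 3 had 18.8 against 15.7 to 16.1 scaled FPKM in the other animals. The gap from knockout 3 to its nearest neighbour was 0.861 of the group's range on the log2(scaled FPKM + 1) scale. As deposited the values lay closer, at 19.4 against 16.4 to 17.4 FPKM. Of 8 groups tested for the 4 genes this was the one past the limit, and chance gives about 1 in 20 groups.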

How the results depend on the processing

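Values are log2 fold changes and counts of genes called by limma. With a pseudocount of 0.1, Fgf21 at thermoneutrality (3.39), Gdf15 at room temperature (4.65) and Gdf15 by temperature in controls (-3.804) passed, and the difference between the knockout effects on Gdf15 was 0.26. Without a filter, 100 genes were called at room temperature and 9 for the difference between effects, and Fgf21 (2.11) did not pass at room temperature. The main fit called 0 genes for the difference between effects (1607 at an unadjusted p under 0.05). With FPKM as deposited, 3248 genes were called at room temperature, 4571 at thermoneutrality and 6 for the difference between effects. There Gdf15 (2.47) and Klb (0.81) at room temperature and Fgfr1 at thermoneutrality (0.68) passed, Fgfr1 at room temperature was 0.21 and Klb by temperature in controls -0.027. With quantile normalization 8 genes differed between effects, Fgf21 at room temperature (1.97) did not pass and Pnpla2 at thermoneutrality was 0.024. Without the controls with R identifiers, Fgf21 at room temperature (2.075) did not pass, Klb by temperature passed in controls (0.52) and knockouts (0.43), and the difference between effects on Klb was -0.092. With sample weights, 815, 3600, 180 and 7535 genes were called at room temperature, at thermoneutrality, for the difference between effects and by temperature in controls. Fgf21 (1.41) and Fgfr1 (0.40) at thermoneutrality, Gdf15 by temperature in controls (-2.23) and Klb by temperature in controls (0.47) and knockouts (0.50) then passed. With limma voom, Fgf21 at room temperature was 4.52 and did not pass, and the differences between effects were -0.066 for Fgf21 and 1.30 for Gdf15. The cause of these changes was not tested.

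Leaving out an animal gave 63 to 247 genes at room temperature, 763 to 2077 at thermoneutrality and 0 to 97 for the difference between effects. Fgf21 ranged from 1.51 to 2.48 at room temperature, 0.89 to 1.35 at thermoneutrality and 0.45 to 1.41 by temperature in knockouts. Gdf15 ranged from 2.89 to 4.53 at thermoneutrality and from -2.73 to -1.10 by temperature in controls. Klb ranged from -0.026 to 0.44 by temperature in controls, 0.31 to 0.58 in knockouts and -0.015 to 0.46 for the difference between effects. The values below 0 came without room-temperature control 2 in controls and without room-temperature control 4 for the difference. The decreases of Gdf15 and Fgfr1 at room temperature in knockouts passed in all 22 alternatives. In the main fit 24.8% of all genes were called lower in this comparison.

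No paired analysis was possible because the replicate numbers were given in accession order and the labels pair no animals across groups. Depth limits Fgf21 and Gdf15 in controls, where 0 to 9 reads stand behind a value at room temperature.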
